A study of Arabidopsis thaliana with 24 samples.

Results

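The comparison of untreated mkk2 plants with untreated Col-0 plants was examined on 6 of the 24 arrays of a study of Arabidopsis MAP kinase kinase mutants and BTH, a synthetic mimic of salicylic acid that switches on plant defence. The 6 arrays were taken by their sample titles. The 3 mkk2 arrays carry the insertion allele Garlic_511-HO1 and are titled no-treatment, with no time given. The 3 arrays of Col-0, the wild type in whose background the mutants are described, are titled Time 0. The other 18 arrays hold mkk1 (allele SALK_027645), mkk1/mkk2 and the same 4 genotypes after BTH, again 3 arrays to a group. RNA came from whole plants raised in soil under short days (8 h light, 21 °C, then 16 h dark, 16 °C), in a greenhouse or in growth chambers, and which samples grew where is not given. Each mutant is 1 insertion line, and the labels do not say whether its 3 replicates were separate plants, so that the p-values measure only the spread between these samples.

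MAP kinase cascades relay a signal by phosphorylation from a MAP kinase kinase kinase to a MAP kinase kinase and on to a MAP kinase. MKK2 is a MAP kinase kinase that acts in cold and salt stress signalling, and together with its close relative MKK1 it links the kinase MEKK1 to MPK4 in a module that holds immune responses in check. Because MKK1 and MKK2 overlap in that role, plants lacking either alone look much like the wild type, whereas plants lacking both are dwarfed and carry active defences. MKK2 and MKK1 have no probe set with their name alone in the annotation used here. Their transcripts could therefore not be picked out among the probe sets fitted, and give no check of the genotypes.

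Every value is a log2 RMA expression value of a probe set on the ATH1 array, a scale on which a difference of 1 is 2-fold. The 6 arrays correlated closely, with Pearson's r of 0.973 to 0.989 among the mkk2 arrays, 0.979 to 0.992 among the Col-0 arrays, and 0.945 to 0.989 between the groups. A technical difference ran alongside the genotypes. The spiked control bioC minus the spiked control bioD was -3.57 to -3.39 on the mkk2 arrays and -2.10 to -1.85 on the Col-0 arrays. The untreated mkk1 arrays, at -3.55 to -3.42, lay with mkk2, and the untreated mkk1/mkk2 arrays, at -2.07 to -1.77, with Col-0. The GAPDH 3′ minus 5′ probe difference, a measure of RNA integrity, was 0.30, 0.47 and 0.61 in mkk2 and 1.18, 0.78 and 0.70 in Col-0, again with no overlap. For mkk2 against Col-0, genotype and array set cannot be told apart. Of the 24 arrays 3 stood apart from the others of their group, mkk2 replicate B (mean r of 0.976 with the other mkk2 arrays), mkk1/mkk2 replicate A (0.934) and Col-0 after BTH replicate A (0.975). Each had the lowest mean r of its group, but no fixed cutoff was used. The next lowest arrays were close in mkk2 (0.981) and in Col-0 after BTH (0.979), and mkk1/mkk2 replicates B and C were at 0.961 and 0.962.

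Untreated mkk2 differed from untreated Col-0 at 1736 of 22746 probe sets (7.63%) at a limma adjusted p under 0.05, with 797 higher (3.5%) and 939 lower (4.13%). Called differences of at least 2-fold numbered 652 (2.87%), made of 289 higher (1.27%) and 363 lower (1.6%), and 27 higher (0.119%) and 39 lower (0.171%) passed 4-fold. The 3 mkk2 arrays and the 3 Col-0 arrays did not overlap at 27.2% of all probe sets, and 1687 (7.42%) were called without overlap. An unadjusted p under 0.05 was reached by 21.9% of all probe sets. With 1 probe set for each of 13355 named genes, 338 genes were higher (2.53%) and 554 lower (4.15%), and the gene lists below are read against these shares. The median change over all probe sets was 0.027 and the median standard error 0.18. Those calls draw on the spread of all 24 arrays. With the 6 arrays alone 0 probe sets passed, the smallest adjusted p being 0.055, although 5109 had an unadjusted p under 0.05. Single arrays also weighed heavily, since 341 probe sets were called without Col-0 replicate A, 772 without Col-0 replicate B and 574 without mkk2 replicate B. Of the 341, 326 were among the 1736. Leaving out the 3 outlying arrays gave 2810 calls, and leaving out mkk1/mkk2 replicate A alone gave 3345.

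**Figure D1:**
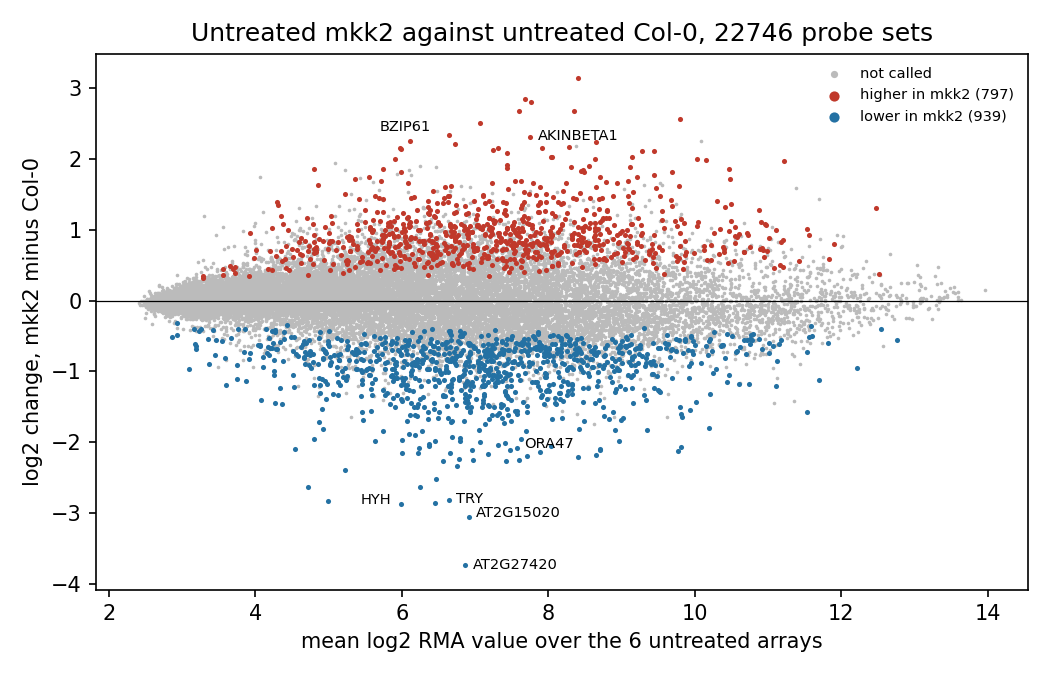
Each point is a probe set, with its mean log2 RMA value over the 6 untreated arrays on the x axis and the log2 change of mkk2 minus Col-0 on the y axis. Red points were called higher in mkk2 (797), blue points lower (939), grey points not called, and the called probe sets include low and high levels alike.

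Among the genes that rose most was BZIP61, a basic leucine zipper transcription factor. Its log2 values were 8.23, 7.81 and 7.42 in mkk2, against 4.97, 4.78 and 6.69 in Col-0, a change of 2.34 ± 0.37 (SE, adjusted p = 0.0014). AKINBETA1, a β subunit of the energy-sensing kinase SnRK1, had 8.98, 8.71 and 9.05 in mkk2, against 5.57, 6.37 and 7.86 in Col-0, a change of 2.31 ± 0.40 (SE, adjusted p = 0.0024). The 15 largest rises and 15 largest falls were taken only from called genes whose arrays did not overlap, so their lack of overlap is no separate result. For both genes Col-0 replicate C was the Col-0 array closest to mkk2. The other 13 of the 15 largest rises carry a locus number and no symbol in the annotation. AT3G47800 had 7.84, 7.72 and 7.95 in mkk2, against 5.22, 5.13 and 6.52 in Col-0, a change of 2.21 ± 0.31 (SE, adjusted p = 0.00067). AT5G44020, at the lower end of the 15, had 10.26, 10.35 and 10.36 in mkk2, against 7.94, 8.72 and 9.01 in Col-0, a change of 1.77 ± 0.32 (SE, adjusted p = 0.0031). These 2 were even across the mkk2 arrays.

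Several of the rises leaned on how low the gene was on Col-0 replicate A. AT1G04680 had 9.29, 9.91 and 8.92 in mkk2, against 5.26, 7.66 and 8.68 in Col-0, a change of 2.17 ± 0.56 (SE, adjusted p = 0.022), and its value on Col-0 replicate C was close to the lowest mkk2 array. AT3G22440 had 8.53, 8.86 and 8.06 in mkk2, against 4.84, 6.98 and 7.39 in Col-0, a change of 2.08 ± 0.50 (SE, adjusted p = 0.016). Without Col-0 replicate A these changes were 1.2 (adjusted p = 0.14) for AT1G04680 and 1.30 (adjusted p = 0.12) for AT3G22440. Among the 15, AT2G16660, AT3G15630, AT3G15450, AT5G65660 and AT2G30930 also lost their calls without this array. Their changes were then 1.46 to 1.91, with adjusted p of 0.051 to 0.12. In contrast BZIP61, AKINBETA1, AT3G47800, AT1G10020, AT2G39870, AT2G34510, AT4G27450 and AT5G44020 kept their calls without it.

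The largest falls among named genes were larger than the largest rises. AT2G27420 had 5.97, 4.49 and 4.54 in mkk2, against 9.89, 8.54 and 7.78 in Col-0, a change of -3.74 ± 0.45 (SE, adjusted p = 0.00018), or 13.3-fold. AT2G15020 had 6.30, 4.52 and 5.33 in mkk2, against 9.16, 8.47 and 7.71 in Col-0, a change of -3.06 ± 0.41 (SE, adjusted p = 0.00054), or 8.36-fold. On both, Col-0 replicate A was the highest of the 6 arrays and the groups lay well apart. AT3G15310, which the reference lists as a pseudogene, had 3.27, 3.40 and 3.56 in mkk2, against 7.29, 6.11 and 4.73 in Col-0, a change of -2.63 ± 0.37 (SE, adjusted p = 0.00059). Its mkk2 values were near the bottom of the scale on all 3 arrays, while the Col-0 values spread widely.

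3 regulators with known roles stood among the 15 largest falls. HYH, a bZIP factor close to HY5 that promotes light responses of seedlings, had 5.25, 3.98 and 4.42 in mkk2, against 8.05, 7.72 and 6.50 in Col-0, a change of -2.87 ± 0.57 (SE, adjusted p = 0.0062). TRY, a small MYB protein that keeps neighbouring epidermal cells from becoming trichomes, had 5.98, 4.77 and 4.97 in mkk2, against 8.47, 8.40 and 7.28 in Col-0, a change of -2.81 ± 0.34 (SE, adjusted p = 0.00019) or 7.01-fold. ORA47, an AP2/ERF factor that activates jasmonate synthesis genes, had 7.19, 6.24 and 6.16 in mkk2, against 8.64, 8.81 and 8.40 in Col-0, a change of -2.09 ± 0.36 (SE, adjusted p = 0.0025). The choice of these genes required arrays without overlap, and in all 3 the gap between the groups was more than 1 log2 unit. HYH lost its call without Col-0 replicate A, at -2.56 (adjusted p = 0.051), whereas TRY and ORA47 did not.

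The tightest falls among the 15 were of AT2G21560 and AT4G24700. AT2G21560 had 3.69, 3.40 and 3.38 in mkk2, against 6.14, 5.50 and 5.13 in Col-0, a change of -2.10 ± 0.21 (SE, adjusted p = 3e-05). AT4G24700 had 6.70, 6.48 and 6.08 in mkk2, against 9.03, 8.55 and 8.03 in Col-0, a change of -2.12 ± 0.21 (SE, adjusted p = 3e-05). The remaining 7, AT1G72920, AT3G51750, AT1G47400, AT1G48100, AT2G40435, AT3G28270 and AT4G37290, fell by 2.08 to 2.52. AT1G47400 was the most uneven, with 4.13, 5.57 and 5.07 in mkk2, against 8.54, 6.95 and 5.74 in Col-0, and its change without Col-0 replicate A was -1.42 (adjusted p = 0.20).

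**Figure D2:**
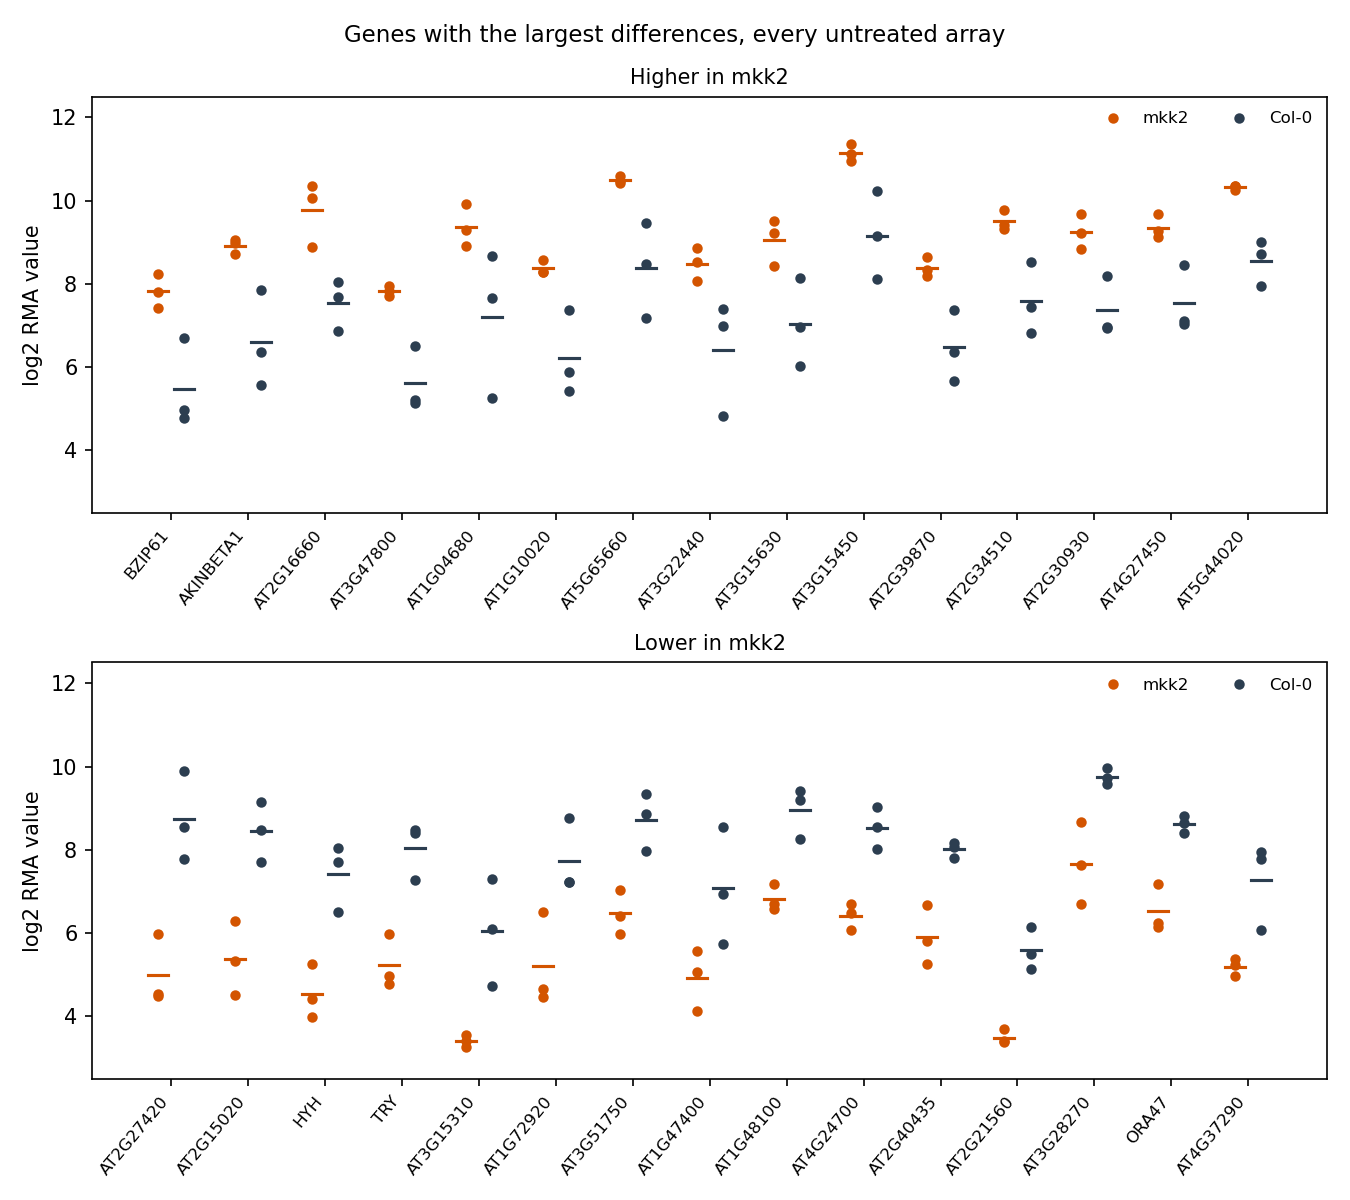
Log2 RMA values on the y axis for the 15 genes with the largest rise (top) and the 15 with the largest fall (bottom), each with its 3 mkk2 arrays on the left in orange and its 3 Col-0 arrays on the right in dark blue. Bars mark the group means, and the Col-0 points of AT1G04680 run from 5.26 to 8.68 while its mkk2 points run from 8.92 to 9.91.

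Lists of genes with related roles were read next, 1 probe set per gene. Of 101 called genes that are among the 30 above or in a list, 69 lost the call without Col-0 replicate A, 50 without mkk2 replicate B and 41 without Col-0 replicate B, and in each case the number that changed sign was 0. Members named beyond the 4 largest called changes of a list were chosen after their values were seen. Transcription factors moved in both directions. Of 15 measured bZIP factors, 3 rose and 1 fell, with a median change of 0.02. Besides BZIP61 and HYH, BZIP28, an ER-membrane factor that switches on protein folding genes under ER stress, rose by 0.90 ± 0.24 (SE, adjusted p = 0.026). BZIP34 rose by 0.90 ± 0.22 (SE, adjusted p = 0.016). Of 4 iron-response bHLH factors, bHLH34 and bHLH104, which activate iron uptake regulators, fell by 1.15 and 0.84, and bHLH121, a partner of that group, rose by 1.34. The values of bHLH34 were 7.18, 7.52 and 7.01 in mkk2, against 9.08, 8.24 and 7.85 in Col-0, those of bHLH121 8.19, 7.72 and 7.81 in mkk2, against 5.73, 6.76 and 7.22 in Col-0, and in each case Col-0 replicate A was farthest from mkk2. NGA1 and NGA2, 2 of 4 NGATHA factors that shape leaf margins and carpels, fell by 1.11 and 0.64, while NGA3 and NGA4 were at -0.05 and -0.01. RR16, a type-A response regulator that dampens cytokinin signalling, fell by 1.28 (adjusted p = 0.020) as the only one of 6 response regulators, and 0 of 6 WRKY factors passed by limma (3 at an unadjusted p under 0.05).

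Genes for handling mRNA held more rises than falls. Of 22 splicing, export and decay factors, 7 rose (31.8%) and 2 fell (9.09%), against 2.53% and 4.15% of all named genes, but the median change was 0.14 and 13 of the 22 were not called. MAC3B, a ubiquitin ligase of a spliceosome-associated complex, had 8.63, 9.13 and 8.33 in mkk2, against 6.99, 7.57 and 7.94 in Col-0, a change of 1.2 ± 0.26 (SE, adjusted p = 0.01). PRP39, a U1 splicing factor, rose by 1.04, ATU2AF35A, which helps to recognise the 3′ splice site, by 1.02, and Y14, a core protein of the exon junction complex, by 0.78. UPF3, of the nonsense-mediated decay machinery, rose by 0.71 and THO5, of the THO export complex, by 0.70, whereas the Sm-like protein gene LSM6A fell by 0.66 and THO7 (AT5G16790) by 0.43. A further gene with the symbol THO7 (AT3G02950) was at -0.48 and not called. The count of 7 rises became 1 without Col-0 replicate A and 2 without mkk2 replicate B.

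Tubulin genes and exocyst subunits had mostly positive changes. Of 7 tubulin genes 4 rose (57.1%), and 6 of 7 had a positive change, with a median of 0.92. TUB5 had 9.21, 9.64 and 9.17 in mkk2, against 7.55, 8.08 and 8.51 in Col-0, a change of 1.29 ± 0.29 (SE, adjusted p = 0.011). TUA6 rose by 0.92, TUA1 by 0.84 and TUB6 by 0.82, although 1 mkk2 array of TUB6 at 8.95 lay under the highest Col-0 array at 9.08. TUB7, which did not pass at 1.48 ± 0.47 (SE, adjusted p = 0.058), had 7.17, 8.52 and 6.49 in mkk2, against 5.52, 5.98 and 6.23 in Col-0, with mkk2 replicate B well above the other mkk2 arrays. Tubulin calls numbered 0 without Col-0 replicate A and 1 without mkk2 replicate B, and 1 (TUA1) with the GAPDH 3′ minus 5′ difference, which separates the groups, as a covariate. All 7 exocyst subunits, which tether secretory vesicles to the plasma membrane, had positive changes with a median of 0.50, and SEC10 at 0.98 (adjusted p = 0.018) and EXO84B at 0.58 (adjusted p = 0.041) passed. The exocyst calls numbered 0 without Col-0 replicate A, without Col-0 replicate B or without mkk2 replicate B. Of 15 tetraspanins TET10 and TET7 rose by 0.74 and 0.67, with a list median of 0.07, and of 5 measured ER folding genes CRT1b, a calreticulin, and BZIP28 rose, CRT1b by 1.55 ± 0.42 (SE, adjusted p = 0.029). The median of these 5 was 0.15. CRT1b was at 0.95 (adjusted p = 0.23) without Col-0 replicate A, and its call was also lost without mkk2 replicate A, without mkk2 replicate B, without the 3 outlying arrays and with the GAPDH covariate.

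Amino acid and aldehyde metabolism held several rises. MCCA and MCCB encode the subunits of the carboxylase that breaks down leucine in mitochondria, and ETFQO passes electrons from that pathway to the respiratory chain. MCCA had 6.67, 6.67 and 6.63 in mkk2, against 5.28, 5.40 and 5.79 in Col-0, a change of 1.17 ± 0.21 (SE, adjusted p = 0.0033). MCCB rose by 0.73 and ETFQO by 0.59, while ETFBETA, IVD and ETFALPHA, the other 3 of the 6 measured, were at -0.60, -0.40 and -0.35 and did not pass. Thus the list split evenly, with a median of 0.12. Of 8 aldehyde dehydrogenases 3 rose, ALDH10A8 by 1.1, ALDH22A1 by 0.65 and ALDH10A9 by 0.52. In sugar metabolism TMT1, a transporter that loads sugars into the vacuole, rose by 1.38 (adjusted p = 0.0095) and APL3, a large subunit of the enzyme that makes ADP-glucose for starch, fell by 1.27 (adjusted p = 0.032), with AKINBETA1 as the third call of 10. SWEET13 and SWEET2, 2 of 14 SWEET sugar transporters, fell by 1.60 and 0.92. SWEET13 had 7.22, 5.52 and 7.57 in mkk2, against 8.75, 8.21 and 8.16 in Col-0, and mkk2 replicate B was the lowest. Without that array its change was -0.98 (adjusted p = 0.15), and the call was also lost without Col-0 replicate A, without Col-0 replicate B and with the GAPDH covariate.

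Nuclear factors that build photosynthetic complexes or edit plastid RNA had falls and no rise. Of 20 such genes 6 fell (30%) and 0 rose, with a median of -0.10. CRR41, needed to assemble the chloroplast NDH complex, had 8.23, 7.97 and 7.99 in mkk2, against 9.53, 9.38 and 8.88 in Col-0, a change of -1.2 ± 0.29 (SE, adjusted p = 0.017). CRR42, an assembly factor of the same complex, had 8.67, 7.90 and 8.59 in mkk2, against 9.33, 9.22 and 8.90 in Col-0, a change of -0.76 ± 0.18 (SE, adjusted p = 0.015). PAM68 and LPA19, which act in photosystem II assembly, fell by 0.76 and 0.75, CCB3, needed for haem attachment in cytochrome b6f, by 0.57, and OTP85, a plastid RNA editing factor, by 0.52. Without Col-0 replicate A, and equally without mkk2 replicate B, 0 of the 20 passed, and without Col-0 replicate B 1 did.

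Genes encoded in the plastid did not follow as calls. Of 43 plastid-encoded photosynthesis genes ndhJ alone passed, with 9.60, 8.15 and 9.26 in mkk2, against 11.03, 10.65 and 10.14 in Col-0, a change of -1.60 ± 0.43 (SE, adjusted p = 0.029), and the median of the list was -0.25. Its neighbour in the plastid genome, ndhK, chosen after its value was seen, had the larger change and missed the threshold, at -1.75 ± 0.54 (SE, adjusted p = 0.052). Calls in the list numbered 0 without Col-0 replicate A, without mkk2 replicate B or with the GAPDH covariate, 2 without mkk2 replicate A and 4 without Col-0 replicate C. The 19 plastid-encoded polymerase and ribosome genes had 0 calls by limma (3 at an unadjusted p under 0.05), 16 negative changes and a median of -0.50. Their mean level was 9.29, 8.74 and 8.85 on the mkk2 arrays and 9.96, 9.33 and 9.0 on the Col-0 arrays, which overlap. All 8 measured nuclear photosystem and antenna genes lay between -0.26 and 0.36, with 0 calls by limma (1 at an unadjusted p under 0.05).

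Among detoxification families the CYP71B and tau glutathione transferase genes had falls and no rise. Of 19 CYP71B cytochromes P450, 5 fell (26.3%), and the others were not called and lay between -0.34 and 0.45, with a list median of -0.06. CYP71B26 had 8.53, 7.72 and 8.19 in mkk2, against 10.27, 9.81 and 9.44 in Col-0, a change of -1.69 ± 0.35 (SE, adjusted p = 0.0067). CYP71B24, CYP71B35, CYP71B36 and CYP71B34 fell by 1.19, 1.14, 1.1 and 0.78. Of 11 tau glutathione transferases, enzymes that attach glutathione to reactive molecules, GSTU16, GSTU23 and GSTU26 fell by 1.28, 1.14 and 1.04. The 47 UDP-glycosyltransferases had 3 falls, UGT71B1 by 0.98, UGT72B3 by 0.96 and UGT76E11 by 0.75, and 1 rise, UGT85A2 by 0.82, shares near those of all genes. UGT76E11 overlapped, with 6.91, 5.93 and 5.76 in mkk2, against 6.99, 7.07 and 6.80 in Col-0. Of 20 β-glucosidases BGLU16 rose by 1.28 (adjusted p = 0.00080) and BGLU40 and BGLU47 fell by 1.24 and 1.13. Without Col-0 replicate A the falls numbered 1 among the CYP71B and 1 among the tau glutathione transferase genes.

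Cell wall families were mixed. Of 22 trichome birefringence-like proteins, several of which acetylate wall polysaccharides, TBL25 and TBL37 rose by 0.78 and 0.52 and TBL28, TBL15 and TBL41 fell by 1.12, 0.89 and 0.71. TBL28 had 6.37, 6.27 and 5.74 in mkk2, against 7.29, 7.14 and 7.31 in Col-0, a change of -1.12 ± 0.16 (SE, adjusted p = 7e-04). GH9C2 and GH9B5 were the 2 falls among 15 GH9 cellulases, by 1.07 and 0.69. Of 27 expansins and xyloglucan hydrolases 0 passed by limma (5 at an unadjusted p under 0.05), and their changes ran from -0.89 to 1.39.

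Stress and defence lists gave few calls, and most of the genes listed had no probe set of their own in the annotation used here. The 7 measured genes of salicylic acid and defence signalling lay between -0.39 and 0.70 without a call, and 0 of 17 defensins and thionins passed by limma (2 at an unadjusted p under 0.05). PDF1.2, a defensin induced through jasmonate and ethylene, had 4.34, 4.77 and 5.31 in mkk2, against 6.29, 5.94 and 5.06 in Col-0, a difference of -0.96 ± 0.39 (SE, adjusted p = 0.15), with overlapping arrays. In the jasmonate list ORA47 was the 1 call of 4. STZ, a zinc finger repressor induced by many stresses, was the 1 call of 6 rapid wound and elicitor response genes, with 7.66, 6.20 and 6.45 in mkk2, against 7.53, 8.75 and 9.57 in Col-0, a change of -1.85 ± 0.45 (SE, adjusted p = 0.017). Here mkk2 replicate A lay above Col-0 replicate A, so that the groups overlapped. CML23, a calmodulin-like calcium sensor, had 5.36, 4.94 and 5.16 in mkk2, against 7.44, 7.22 and 6.47 in Col-0, a change of -1.89 ± 0.30 (SE, adjusted p = 0.0015), and was the 1 call of 7 calmodulin-like genes.

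Cold signalling, the best known role of MKK2, was thinly covered. Of 30 cold and dehydration genes listed 5 were measured, 4 of which had negative changes, with a median of -0.81 and 0 calls by limma (2 at an unadjusted p under 0.05). Their mean level was 8.69, 8.16 and 8.71 on the mkk2 arrays and 9.08, 9.29 and 8.88 on the Col-0 arrays, with no overlap. It was also below Col-0 on the untreated mkk1 arrays (7.53, 8.38 and 8.24) and mkk1/mkk2 arrays (6.29, 6.85 and 8.07), so that the lower level was not particular to mkk2. From the MAP kinase list only ATMPK13 was measured, at 0.06. GI, a clock protein and the 1 measured clock gene, was at 0.74 (adjusted p = 0.16). Of 9 ATG8 autophagy genes 8 had negative changes and a median of -0.57, but APG8A alone passed, at -0.72 ± 0.21 (SE, adjusted p = 0.041). The ATG8 mean was 7.81, 7.79 and 7.94 on the mkk2 arrays and 8.42, 8.36 and 8.24 on the Col-0 arrays. WES1, which conjugates auxin and salicylic acid to amino acids, had 6.08, 6.53 and 5.64 in mkk2, against 5.05, 4.98 and 5.09 in Col-0, a change of 1.04 ± 0.24 (SE, adjusted p = 0.012), the 1 call among 12 auxin response genes.

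**Figure D3:**
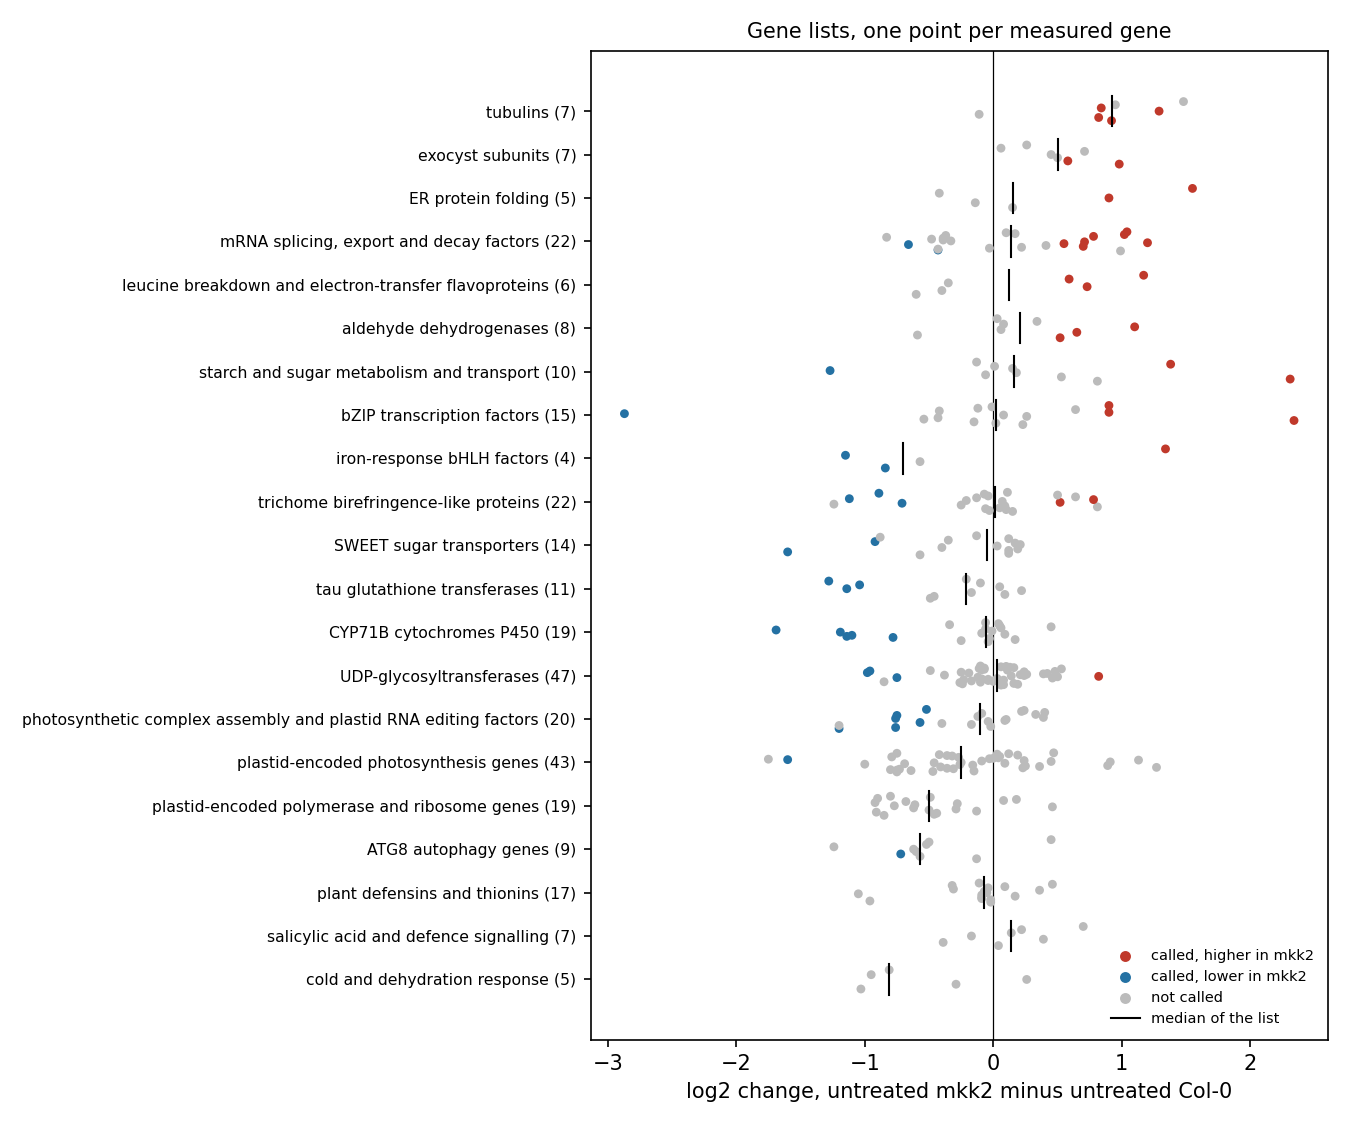
Each point is 1 measured gene, placed on the x axis by its log2 change in untreated mkk2 minus untreated Col-0, in rows of named lists with the number measured in brackets. Red and blue mark genes called higher and lower in mkk2, grey the rest, and black bars the medians, which lie at 0.92 for tubulins and -0.57 for ATG8 genes.

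Further called genes with a name were chosen after their values were seen. FER, the receptor kinase FERONIA that monitors the cell wall, had 8.65, 8.64 and 8.20 in mkk2, against 6.33, 6.99 and 7.64 in Col-0, a change of 1.51 ± 0.38 (SE, adjusted p = 0.02). PORB, an enzyme of chlorophyll synthesis that needs light, had 11.05, 11.11 and 11.04 in mkk2, against 8.84, 9.90 and 10.51 in Col-0, a change of 1.32 ± 0.34 (SE, adjusted p = 0.024). ACLB-1, a subunit of the enzyme that makes acetyl-CoA in the cytosol, rose by 1.17, and SIR, the sulfite reductase of sulfur assimilation, by 0.95. On the falling side MYC4, a bHLH factor of jasmonate responses, had 5.50, 5.62 and 5.26 in mkk2, against 8.22, 6.69 and 6.0 in Col-0, a change of -1.51 ± 0.36 (SE, adjusted p = 0.016). TINY2, a DREB-type AP2/ERF factor, fell by 1.58 (adjusted p = 0.0056), AFR, an F-box protein of far-red light signalling, by 1.48 (adjusted p = 0.0047) and IAGLU, which attaches glucose to auxin, by 1.26 (adjusted p = 0.0044). GIS, a zinc finger protein that promotes trichome initiation, fell by 0.86 (adjusted p = 0.018). Without Col-0 replicate A only AFR and IAGLU of these 9 genes kept their calls, MYC4 being at -0.89 (adjusted p = 0.096), PORB at 0.86 (adjusted p = 0.2) and ACLB-1 at 0.77 (adjusted p = 0.1).

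Of the few tissue markers measured 0 passed by limma (2 had an unadjusted p under 0.05). The 3 measured of 8 mesophyll markers averaged 11.94, 11.49 and 11.85 in mkk2 and 11.30, 11.67 and 11.85 in Col-0. The 2 measured of 9 root markers averaged 4.56, 6.41 and 4.79 in mkk2 and 4.14, 4.80 and 4.46 in Col-0. That high value on mkk2 replicate B came from PYK10, a β-glucosidase of ER bodies, at 4.59, 8.52 and 4.67 in mkk2, against 4.23, 5.02 and 4.68 in Col-0. Its part in other results was not tested. SAG29, the 1 measured of 7 markers of senescent leaves, was at -0.93 ± 0.37 (SE, adjusted p = 0.14), and no flower, seed or vascular marker was measured. Tissue share and RNA per cell cannot be told apart in whole-plant RNA.

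Next, mkk2 was set against mkk1, the mutant of the related kinase, whose untreated arrays share the spike difference of the mkk2 arrays. By limma 1 probe set passed (0.0044%), and 870 (3.82%) had an unadjusted p under 0.05. The median absolute change was 0.12, against 0.19 for mkk2 minus Col-0. Over the probe sets called against Col-0 it was 0.17, against 0.88 in the comparison that chose them, a choice that raises the latter value. None of the 30 genes with the largest differences from Col-0 differed from mkk1 by a call, their mkk2 minus mkk1 changes lying between -0.82 and 0.76 with 95% half-widths of 0.44 to 1.2. TRY, for instance, differed from mkk1 by 0.06 (95% interval -0.65 to 0.77) and BZIP61 by 0.03 (-0.74 to 0.80). Over the 30 genes the bounds of these intervals ran from -1.99 to 1.57, so that differences from mkk1 of that size are not excluded for single genes.

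The count against mkk1 moved with the arrays in the fit. Without mkk2 replicate B 82 probe sets passed, 8 higher and 74 lower. Without that array, mkk1/mkk2 replicate A and Col-0 after BTH replicate A together, the 3 arrays that stood apart from their groups, 1300 passed (5.72%), 378 higher and 922 lower. Only mkk2 replicate B of these 3 is in the comparison. The changes were therefore the same in both fits, and the other arrays bore only on the shared spread. In the fit without the 3 arrays 4 of 6 measured flavonoid and anthocyanin genes were lower in mkk2 than in mkk1. DFR, which makes the colourless precursors of anthocyanins, was at -1.93 (adjusted p = 0.028), the glycosyltransferase UF3GT at -1.04 (adjusted p = 0.028) and the malonyltransferase AT5MAT at -1.37 (adjusted p = 0.0045). With all arrays the same genes were not called, at -1.28, -0.72 and -0.92. Without mkk2 replicate B alone 2 of the 6 passed. AT5MAT was 1 of them (limma adjusted p = 0.016), while DFR and UF3GT did not pass (limma adjusted p = 0.086 for each). Single markers of other cell types moved in the fit without the 3 arrays, the root marker PYK10 at -3.31 (adjusted p = 0.0057) and SPCH, of the guard cell lineage, at -0.86 (adjusted p = 0.031). The other measured root marker, EXPA7, was at 0.35 (adjusted p = 0.34), and the other measured guard cell marker, FMA, at 0.07 (adjusted p = 0.87). The part of these markers was not tested. SWEET13 was higher than in mkk1 in that fit, by 1.16 (adjusted p = 0.044). With only mkk2 replicate B left out, PYK10, SPCH and SWEET13 were not called (limma adjusted p = 0.076, 0.082 and 0.14).

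Changes in mkk1 and in mkk1/mkk2 are given side by side with those of mkk2, since all 3 comparisons use the same Col-0 arrays. The mkk1/mkk2 arrays share the spike level of Col-0, whereas the mkk1 and mkk2 arrays do not. The part of the array set in these changes was not tested. Of 22746 probe sets 3931 (17.3%) were called for mkk1 and 7573 (33.3%) for mkk1/mkk2. The examples were chosen after their values were seen. TRY stood at -2.81 in mkk2, -2.87 in mkk1 and -3.60 in mkk1/mkk2. AT2G27420 stood at -3.74, -3.59 and -5.39 in the same order of genotypes, HYH at -2.87, -3.11 and -1.98, ORA47 at -2.09, -2.22 and -2.47, and AT3G47800 at 2.21, 1.89 and 2.39. AKINBETA1 stood at 2.31 in mkk2, 1.99 in mkk1 and 2.51 in mkk1/mkk2. BZIP61 stood at 2.34 in mkk2, 2.31 in mkk1 and -0.42 in mkk1/mkk2, where it was not called. AT1G72920, at -2.52 in mkk2 and -2.19 in mkk1, was likewise near 0 in mkk1/mkk2, at 0.07. APG8A, at -0.72 in mkk2 and -0.67 in mkk1, was at 1.64 in mkk1/mkk2. Over all 8 group means untreated Col-0 was the lowest for 12 of the 15 largest rises and the highest for 14 of the 15 largest falls. These genes were chosen by their difference from the same Col-0 arrays, which favours such a place. The share over all probe sets was not counted, so nothing is drawn from these counts.

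The 1 probe set called against mkk1 was 253646_at, which carries no gene name in the annotation used here. Its values were 6.13, 5.89 and 6.40 in mkk2, 8.07, 8.12 and 7.87 in mkk1, 8.53, 8.57 and 8.96 in mkk1/mkk2 and 7.98, 7.87 and 8.07 in Col-0. No mkk2 array came within 1 log2 unit of an array of the other 3 genotypes. It was lower in mkk2 than in Col-0 by a change of -1.83 ± 0.19 (SE, adjusted p = 3.9e-05) and lower than in mkk1 by a change of -1.88 ± 0.19 (SE, adjusted p = 0.00015). After BTH it was 7.72, 7.0 and 6.93 in mkk2, 9.74, 9.80 and 9.94 in mkk1, 8.63, 8.27 and 8.55 in mkk1/mkk2 and 9.32, 9.70 and 9.89 in Col-0. There the mkk2 minus Col-0 change was -2.42 (adjusted p = 2.3e-06), and it was the 1 probe set called lower against Col-0 untreated, against Col-0 after BTH and against mkk1 untreated.

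**Figure D4:**
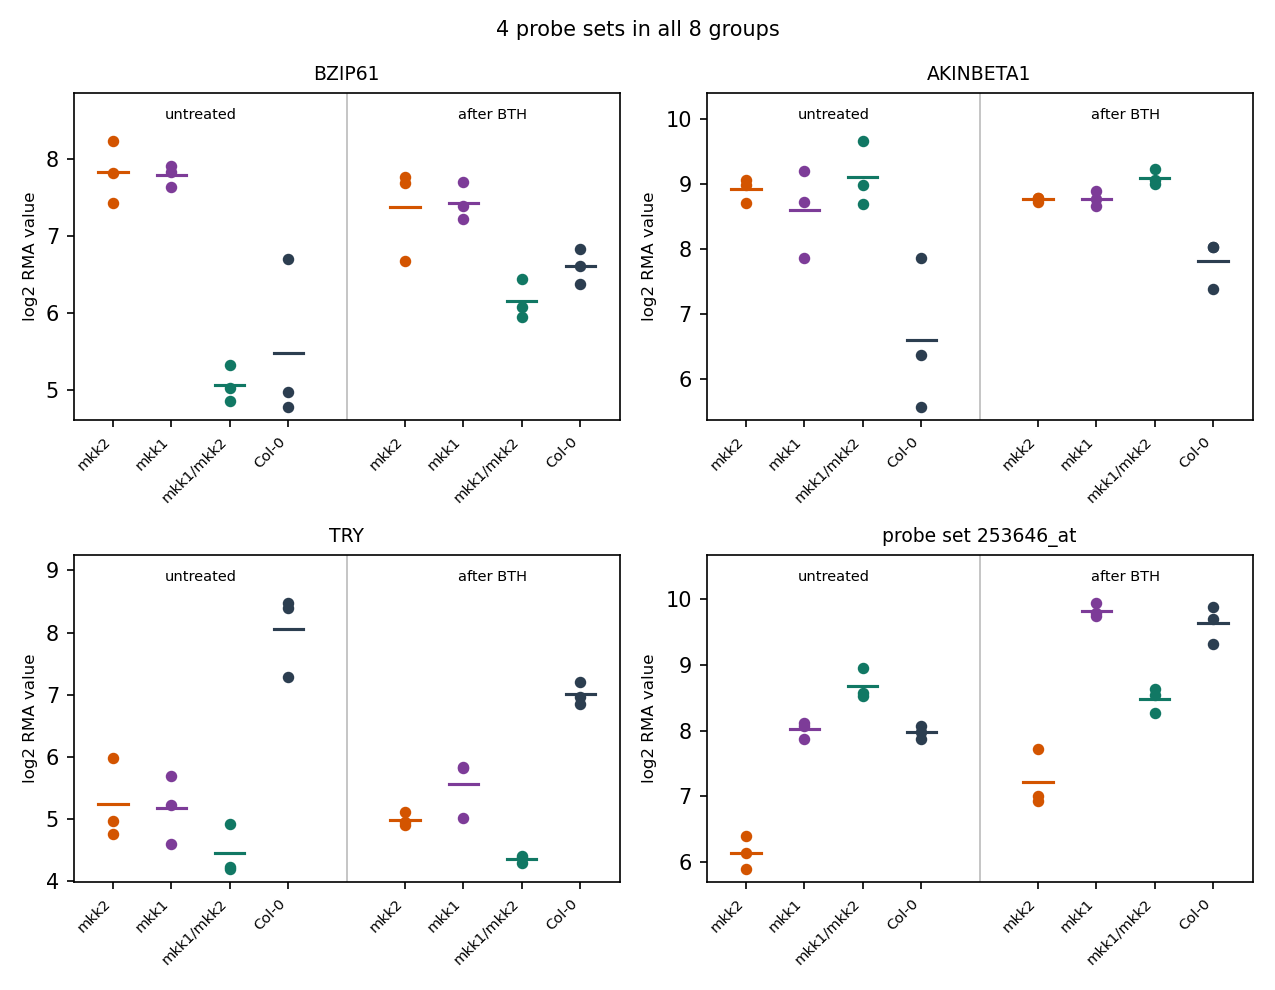
Log2 RMA values on the y axis of 4 probe sets on all 24 arrays, untreated groups left of the line and groups after BTH right of it, each group with its 3 arrays as points and its mean as a bar. In untreated plants BZIP61, AKINBETA1 and TRY set Col-0 apart from mkk2 and mkk1 alike, whereas 253646_at is lowest in mkk2 in both conditions.

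The 6 arrays of mkk2 and Col-0 after BTH give the same pair of genotypes on other arrays, again across the 2 spike levels. Their BTH label rests on titles and source names, as the treatment note of the Col-0 samples reads as a control treatment. There 417 probe sets were called (1.83%), 217 higher (0.954%) and 200 lower (0.879%). With 1 of the 6 left out the count was 70 (without Col-0 replicate A) to 997 (without Col-0 replicate C), with 133 to 229 calls on leaving out any 1 of the mkk2 arrays and 179 on leaving out Col-0 replicate B. It was 703 on leaving out the 3 outlying arrays and 1470 on leaving out mkk1/mkk2 replicate A. Of the 797 higher in untreated mkk2, 77 (9.66%) were also called higher after BTH, which is 35.5% of those 217. Of the 939 lower, 135 (14.4%) were also called lower, which is 67.5% of those 200. Direction was kept by 768 of the 797 (96.4%) and 887 of the 939 (94.5%), against 52.6% positive and 47.1% negative over all probe sets. Median changes after BTH were 0.50 and -0.52, against 0.88 and -0.88 in the untreated state that chose them.

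Of the 30 largest differences 29 kept their sign after BTH and 6 were called again. TRY had log2 values of 5.11, 4.90 and 4.96 in mkk2, against 6.96, 7.21 and 6.86 in Col-0 after BTH, a change of -2.02 ± 0.34 (SE, adjusted p = 0.0056). AT3G47800 had 8.46, 8.58 and 8.15 in mkk2, against 6.18, 6.81 and 7.14 in Col-0, a change of 1.69 ± 0.31 (SE, adjusted p = 0.0086). AT2G40435, AT4G24700, AT1G47400 and AT2G21560 were the other 4, at -1.83, -1.30, -2.32 and -0.89. BZIP61 and AKINBETA1 did not pass after BTH, at 0.77 (adjusted p = 0.31) and 0.95 (adjusted p = 0.24), and HYH was at -1.85 (adjusted p = 0.099). AT2G27420, the largest fall of the untreated plants, had 3.74, 3.63 and 3.36 in mkk2, against 4.14, 4.42 and 4.56 in Col-0 after BTH, a difference of -0.80 ± 0.45 (SE, adjusted p = 0.41). In SWEET13 the fall was called in both conditions, at -1.60 untreated (-0.98 and not called without mkk2 replicate B) and -1.90 after BTH, as it was in BGLU40, RR16, TBL28 and GSTU26. TUA1 rose in both, by 0.84 and 0.78.

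**Figure D5:**
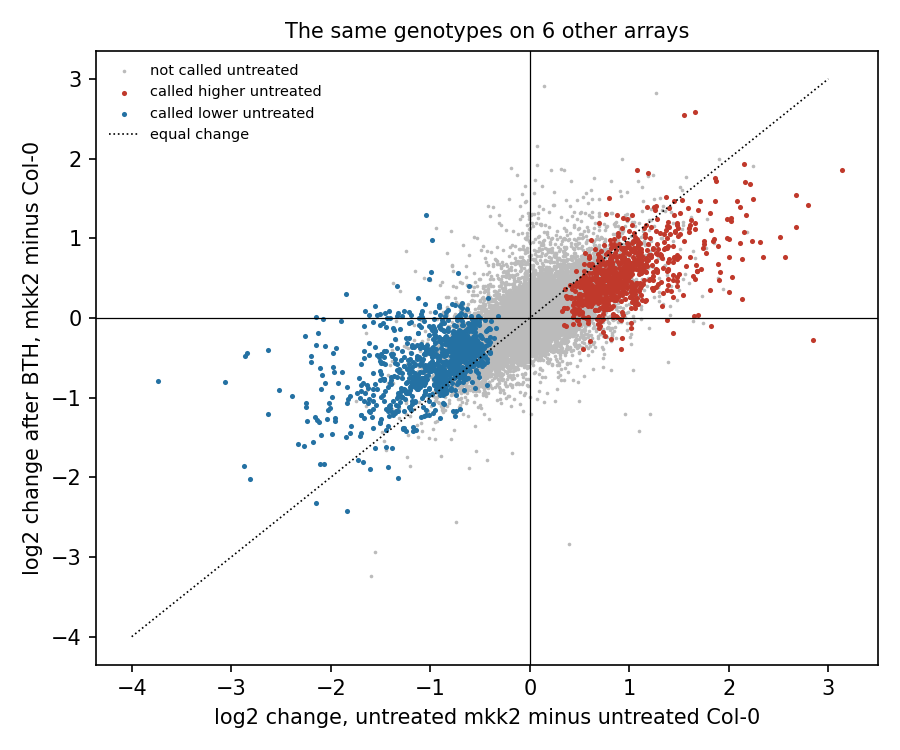
Each point is a probe set, with its log2 change in untreated mkk2 minus untreated Col-0 on the x axis and the change of mkk2 minus Col-0 after BTH on the y axis. Red and blue points were called higher (797) and lower (939) in the untreated plants, and most lie on the same side of 0 on both axes but nearer to 0 after BTH, as the dotted line of equal change shows.

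After BTH, mkk2 differed from mkk1 at 7 probe sets (0.0308%), 6 higher (0.0264%) and 1 lower, with 411 (1.81%) at an unadjusted p under 0.05, in a comparison added after the data were seen. The lower one was again 253646_at, at -2.61 ± 0.19 (SE, adjusted p = 6e-07). AT1G57630 had 8.63, 7.86 and 8.36 in mkk2, against 6.44, 7.37 and 6.52 in mkk1, a change of 1.51 ± 0.22 (SE, adjusted p = 0.0070). Hsp70-2, a chaperone of the Hsp70 class, had 8.14, 7.71 and 7.85 in mkk2, against 6.93, 6.48 and 6.59 in mkk1, a change of 1.23 ± 0.19 (SE, adjusted p = 0.0086). On neither gene did the arrays of the 2 mutants overlap, and both genes were also higher in mkk2 than in Col-0 after BTH, by 1.49 and 1.51. In untreated mkk2 they were not called against Col-0, at -0.21 and 0.54. The other 4 higher probe sets have no single gene name. The count of 7 was 3 without mkk2 replicate A or without mkk1 replicate C, and 23 without mkk1/mkk2 replicate A. As for Col-0, the BTH label of the mkk1 arrays rests on titles and source names, since their treatment note reads as a control treatment.

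Whether the genotype difference itself depended on BTH was tested as a difference of differences. Only 5 probe sets passed (0.022%), all with the more negative mkk2 minus Col-0 change in the untreated plants, and 873 (3.84%) had an unadjusted p under 0.05. With 1 untreated array left out the calls numbered 26 without Col-0 replicate C, 14 without Col-0 replicate A, 3 without mkk2 replicate A and 0 without replicate B of either genotype, and with 1 BTH array left out 0 to 3. Leaving out the 3 outlying arrays gave 0 calls, and leaving out mkk1/mkk2 replicate A gave 14. None of the 30 genes with the largest untreated differences was among the 5. For most genes called in 1 condition and not in the other, a difference between the conditions was therefore not shown.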

How the data were processed

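Expression was measured on ATH1 arrays, 1 array per sample, from total RNA extracted with Trizol, amplified and labelled with biotin, per the labels' protocols. The authors deposited log2 expression values made with RMA, per the submitters' processing notes, which is a background correction, normalization between arrays and summary per probe set. The RMA version and the arrays normalized together are not given in the sources used here. The table holds 22810 probe sets with values of 2.27 to 14.14 and array medians of 5.57 to 5.78, and no transformation was applied again. Array number, 3 per group, limits the precision.

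From these values 64 AFFX control probe sets were set aside, and the other 22746 were fitted with limma 3.58.1 (lmFit and eBayes) in R 4.3.3 with the data.table package (version 1.17.8), with 8 group means over 24 arrays and Benjamini-Hochberg adjustment over all 22746. An adjusted p under 0.05 was called. Groups came from sample titles, since the description field calls all samples untreated Col-0. The calculation was tested on simulated data of independent normal values. These held no array sets and no outlying arrays, so that test does not bear on such features of the real arrays. Probe sets were named through the array annotation and the RefSeq gene table of TAIR10.1: 13513 have 1 symbol (13436 matched to a reference locus), 503 several and 8730 none, and only the first kind was named or listed. The highest-mean probe set stood for a gene with several. Of 257 genes listed by name 44 were measured, and 29 further lists were drawn by symbol. Named genes are the 15 largest rises and 15 largest falls among called genes whose arrays do not overlap, up to 4 called members per list, PDF1.2, genes called against mkk1 and those called in all 3 comparisons. All others, list members beyond 4 included, were chosen after their values were seen. The genes, lists and comparisons were chosen with earlier results of these data known. The comparison of mkk2 with mkk1 after BTH was added after seeing the data. Alternatives varied the arrays in the fit, replicate letter as a block, array weights, variance trend, a filter at a mean of 5, scaling, GAPDH as a covariate, and single arrays left out.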

Additional observations from a re-analysis of the deposited data

Results flagged for a closer look

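For 5 probe sets the mkk2 minus Col-0 change differed between untreated plants and plants after BTH by the test of the difference itself. AT1G58420 had a difference of -2.34 ± 0.39 (SE, adjusted p = 0.043). Untreated it was 6.20, 5.69 and 6.16 in mkk2, against 6.23, 7.34 and 7.61 in Col-0, and after BTH 8.56, 7.96 and 8.24 in mkk2, against 7.06, 6.90 and 6.91 in Col-0. It was thus lower in mkk2 before BTH and higher after it, and was the 1 probe set called in opposite directions.

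The other 4 have no single gene name in the annotation used here. Probe set 258653_at had a difference of -2.40 (adjusted p = 0.034) and was 4.16, 3.16 and 3.39 in untreated mkk2, against 5.67, 7.01 and 6.54 in untreated Col-0, the 1 group with high values, since the 18 other arrays lay at 3.0 to 3.97. Probe set 252474_at had a difference of -1.73 (adjusted p = 0.019), with untreated values of 7.85, 7.62 and 7.32 in mkk2, against 8.73, 8.79 and 9.26 in Col-0. Probe set 267084_at had a difference of -1.35 (adjusted p = 0.041), with untreated values of 7.40, 7.38 and 7.27 in mkk2, against 8.73, 8.78 and 8.34 in Col-0, and after BTH a change of 0.09. Probe set 254385_s_at had a difference of -2.07 (adjusted p = 0.019), with a change of -0.19 untreated and 1.88 after BTH, where it was 9.55, 9.33 and 9.06 in mkk2, against 7.49, 7.58 and 7.23 in Col-0.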

How the results depend on the processing

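For untreated mkk2 against Col-0, the count of 1736 became 0 with the 6 arrays alone, 7473 with array weights, 2810 on leaving out 3 outlying arrays (mkk2 replicate B, mkk1/mkk2 replicate A, Col-0 after BTH replicate A), 3345 without mkk1/mkk2 replicate A, and 341 to 2403 with 1 of the 6 arrays left out, 341 being without Col-0 replicate A. It stayed within 1.5 times under the other alternatives, at 1500 with GAPDH as a covariate, of which 1038 were among the 1736, and 1575 with a variance trend. Centring arrays on their medians gave 36.4% higher among the calls and the GAPDH covariate 38%, against 45.9%. Against mkk1 untreated the count of 1 became 0 with the 6 arrays alone, 9 with array weights, 1300 on leaving out the 3 and 1 to 82 with 1 array left out. After BTH the count of 417 against Col-0 became 819 with array weights, 703 on leaving out the 3, 1470 without mkk1/mkk2 replicate A and 70 to 997 with 1 array left out, and the count of 7 against mkk1 became 3 on its own arrays, 233 with array weights, 28 on leaving out the 3, 23 without mkk1/mkk2 replicate A and 3 to 8 with 1 array left out. The 5 differences between conditions became 2 on their own 12 arrays, 174 with array weights, 3 with a mean of at least 5, 8 with the GAPDH covariate, 0 on leaving out the 3, 14 without mkk1/mkk2 replicate A and 0 to 26 with 1 array left out. The causes were not tested. With the replicate letter as a replicate block the counts were 1812 against Col-0 untreated and 0 for the difference between conditions. The deviations of same-lettered mkk2 and Col-0 arrays from their group means correlated at -0.10, 0.14 and -0.11, and those of unlike-lettered arrays at -0.12 to 0.17. The titles give only a letter, and whether same-lettered arrays share a batch is not known. EXLB1, not called at -0.01, was called at 0.31 (adjusted p = 0.048) with array weights. Of the 101 called genes among the 30 largest or in a list, 30 lost the call with the GAPDH covariate, 7 with a variance trend, 4 with median centring, 2 with the block and 1 with quantile scaling.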

Other observations

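Of 12 ubiquitin-specific proteases UBP24 and UBP21 rose in untreated mkk2 against Col-0, by 0.78 and 0.75. The 6 measured flavonoid and anthocyanin genes had 0 calls by limma (2 at an unadjusted p under 0.05) and a median of 0.32. The 2 measured guard cell markers had 0 calls (1 at an unadjusted p under 0.05), the 1 measured glucosinolate and camalexin gene was at -0.41, and 0 abscisic acid response genes were measured.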
